A study of Rattus norvegicus with 6 samples.

Results

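Glutathione and antioxidant defence genes were followed across the cell types of rat lungs 28 days after bleomycin (BLM), an antitumour drug whose instillation damages the alveoli and is followed by scarring. The members were all genes of the count table whose symbols begin with Gsta, Gstm, Gstp, Gstt, Gsto, Mgst, Gpx, Prdx or Txn, together with Gclc, Gclm, Gsr, Nqo1, Hmox1, Sod1, Sod2, Sod3 and Cat, so that 52 of 16383 genes were members. Srxn1, which the same rule names, was not analysed here. The prefixes gave 43 members: 15 glutathione transferases (4 Gsta, 3 Gstm, 1 Gstp, 3 Gstt, 1 Gsto and 3 Mgst), 6 Gpx, 6 Prdx and 16 Txn genes. BLM lungs came from 3 young adult Sprague Dawley rats given 5 mg/kg BLM into the trachea, and control lungs from 3 rats given the same volume of saline. Small pieces of each lung were digested on day 28, and mRNA was captured cell by cell in microwells of the BD Rhapsody system, where a unique molecular identifier (UMI) marks every captured molecule. Each library was 1 rat.

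Cells remove hydrogen peroxide, lipid peroxides and reactive drugs along 2 linked routes that both draw on NADPH. In the glutathione route, glutamate-cysteine ligase (Gclc and Gclm) makes the tripeptide, glutathione peroxidases and transferases spend it, and glutathione reductase (Gsr) recycles it. In the thioredoxin route, thioredoxin reductases recharge thioredoxins, which recharge the peroxiredoxins, and Txnip binds and inhibits thioredoxin. Superoxide dismutases turn superoxide into hydrogen peroxide, catalase (Cat) splits it, and heme oxygenase (Hmox1) breaks heme into biliverdin, carbon monoxide and iron. Many of these genes, among them Gclc, Gclm, Nqo1, Hmox1 and Txnrd1, are known targets of the stress-responsive transcription factor NRF2 (Nfe2l2). In the lung they are known from the airway epithelium, which meets inhaled oxidants, and from macrophages, which make oxidants themselves and take up debris and red blood cells.

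The 6 rats gave 25547 cells, 15009 from BLM lungs and 10538 from control lungs, with 8082376 to 16598959 UMIs per BLM rat and 3860028 to 12171722 per control rat. Cells were clustered without the members and named from marker lists, which gave 22 classes, while 1 of the 28 clusters, with 1076 cells (4.21%), stayed unnamed. Barcodes were shared between libraries in 629 cells (2.46%), and 11.6% of all cells held fewer than 500 UMIs. UMIs were summed per rat and class and tested by the quasi-likelihood method of edgeR, and p-values were adjusted by the Benjamini-Hochberg procedure over all genes of a class, with n = 3 rats in each group throughout. A member is said to have risen or fallen where its adjusted p was under 0.05. Levels are given as CPM, the counts of a gene per 1000000 UMIs of the class in a rat, and errors as the SD over 3 rats or the standard error (SE) of a log2 fold change. This SE is approximate: it is the absolute log2 fold change divided by the square root of the F statistic of the edgeR test. The 15 classes with at least 10 cells in every rat were tested, and 7 classes were described by their levels only. In alveolar macrophages, interstitial macrophages, endothelial cells and neutrophils, the 4 classes described most fully, the class's own marker list had a higher summed level in every rat than any other list. The classes were named from these same lists, which differ in their number of genes, so this is no separate test of the names.

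Of the 52 members, 23 passed the test in at least 1 class, 29 passed in none, and of those Gstt1, Gstt2 and Txndc16 were too low to be tested in any class. The share of all genes that passed in at least 1 class is not given here, so these counts have no background beside them. Shares of all genes within a class are given with that class below. Members passed in 8 classes: alveolar macrophages, interstitial macrophages, endothelial cells, neutrophils, proliferating cells, mesothelial cells, non-classical monocytes and a stromal cluster led by Cldn11. The most widely changed member was Hmox1, which rose in 5 classes, followed by the mitochondrial superoxide dismutase Sod2, which rose in 4, and the peroxiredoxin Prdx5, which rose in 3. Among its 5 classes, the call of Hmox1 held with each rat left out in neutrophils only, where macrophage markers were also higher in BLM rats. Within either cluster of the alveolar macrophages Hmox1 did not pass. Among the 29 members that passed nowhere were the ligase modifier Gclm, the quinone reductase Nqo1, the cytosolic and extracellular superoxide dismutases Sod1 and Sod3, all Gsta, Gstm and Gstt genes, and Gpx7, Gpx8, Prdx2, Prdx4 and Prdx6.

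**Figure D1:**
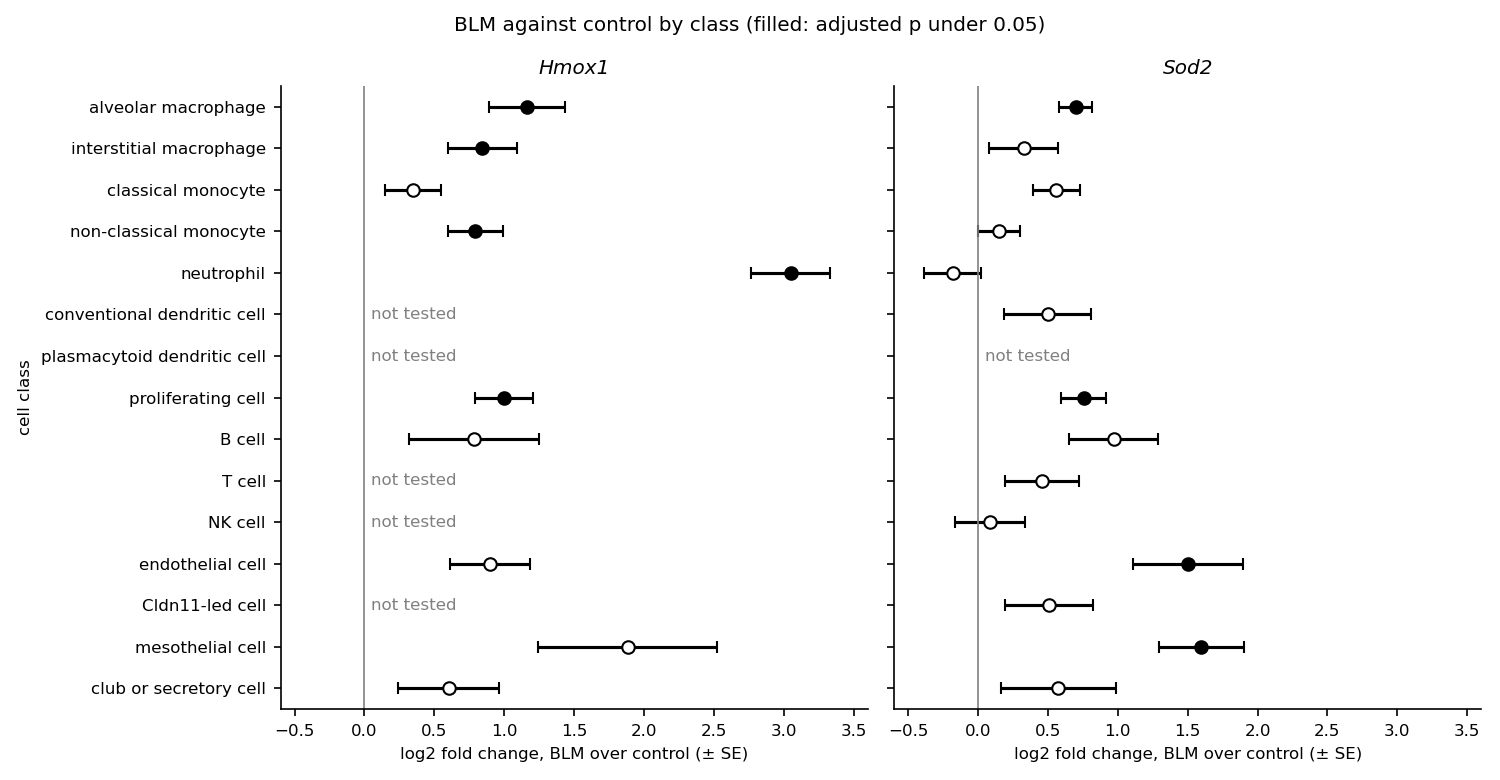
Log2 fold change of Hmox1 (left) and Sod2 (right), BLM over control, in the 15 tested classes, with bars of 1 standard error. Filled points had an adjusted p under 0.05. Hmox1 was filled in 5 classes, with the point farthest to the right in neutrophils at 3.05, and Sod2 in 4, with the points farthest to the right in mesothelial cells at 1.60 and endothelial cells at 1.5. Grey text marks classes in which the gene was too low to be tested.

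In alveolar macrophages, the resident phagocytes of the airspace, Gclc, Hmox1, Sod2, Txnl1 and Gstp1 rose and Txn1 fell. Thus 5 of 39 members tested rose (12.8%), where 8.18% of all genes rose, and 1 fell (2.56%), where 6.25% of all genes fell. The median log2 fold change was 0.03 over the members and 0.0022 over all genes tested. Gclc, the catalytic subunit of the enzyme that starts glutathione synthesis, had 121.7, 137.1 and 119.2 CPM in BLM rats, against 61.6, 63.4 and 59.3 CPM in control rats. All BLM values thus lay near 2 times the control values, with little spread in either group (log2 fold change 1.01, SE 0.11, adjusted p = 0.00025). Hmox1 had 1485, 1500 and 733 CPM in BLM rats and 688, 547 and 401 CPM in control rats, so that BLM rat 3 lay close to control rat 1 (log2 fold change 1.17, SE 0.27, adjusted p = 0.016). Its call was lost without BLM rat 1, BLM rat 2 or control rat 3, with a log2 fold change between 1.0 and 1.46 over all rats left out in turn. Sod2 had 1367, 1417 and 1175 CPM in BLM rats and 758, 807 and 817 CPM in control rats (log2 fold change 0.70, SE 0.12, adjusted p = 0.0032).

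Txn1, the cytosolic thioredoxin, was the member that fell in alveolar macrophages, with 5753, 5636 and 4332 CPM in BLM rats and 7883, 8805 and 9165 CPM in control rats (log2 fold change −0.75, SE 0.15, adjusted p = 0.0066). The calls of Txn1, Gclc and Sod2 held with each rat left out in turn. Txnl1, a thioredoxin-like protein, averaged 162.8 ± 15.4 CPM in BLM rats and 115.3 ± 12.02 CPM in control rats (log2 fold change 0.43, SE 0.12, adjusted p = 0.038), and its call held only without control rat 3. Gstp1, the pi class transferase, stood at 12.2 ± 3.35 CPM in BLM rats and 5.81 ± 0.0417 CPM in control rats (log2 fold change 1.05, SE 0.28, adjusted p = 0.029) and lost its call without BLM rat 2, control rat 1 or control rat 3. Without BLM rat 2 the members past the threshold numbered 3 in place of 6. Marker lists of other cells also moved. The 6 classical monocyte markers, of which Ly6c was at 0, summed to 951 to 1266 CPM in the alveolar macrophages of BLM rats and 212 to 314 CPM in those of control rats. The 9 conventional dendritic cell markers summed to 414 to 531 and 49.7 to 79.8 CPM, and the 8 alveolar type 1 markers to 212 to 315 and 17.4 to 45.8 CPM, in BLM and control rats. Their part in the result was not tested.

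Other enzymes of both routes did not pass in alveolar macrophages. The ligase modifier Gclm averaged 32.8 ± 5.46 CPM in BLM rats and 35.0 ± 7.53 CPM in control rats. Cat averaged 256.6 ± 32.5 and 247.6 ± 7.84 CPM, Nqo1 41.3 ± 8.61 and 40.5 ± 7.98 CPM, and Prdx1, a cytosolic peroxiredoxin, 973 ± 92.1 and 930.7 ± 113 CPM in BLM and control rats, with log2 fold changes between 0.02 and 0.07 (adjusted p from 0.86 to 0.95). The glutathione reductase Gsr averaged 89.7 ± 13.3 CPM in BLM rats and 110.7 ± 5.70 CPM in control rats (log2 fold change −0.33, SE 0.13, adjusted p = 0.13). Gpx1, the cytosolic selenium-dependent glutathione peroxidase, averaged 3088 ± 219 CPM in BLM rats and 3682 ± 416 CPM in control rats (log2 fold change −0.29, SE 0.13, adjusted p = 0.17), and Sod1 546 ± 81.5 and 696 ± 45.4 CPM (log2 fold change −0.40, SE 0.13, adjusted p = 0.063). Txnrd1 had a log2 fold change of 0.31 (SE 0.11, adjusted p = 0.082), Txnip of 0.50 (SE 0.20, adjusted p = 0.14) and Prdx6, a peroxiredoxin that is also a phospholipase, of 0.21 (SE 0.12, adjusted p = 0.31). Gpx4, which reduces lipid peroxides in membranes, averaged 359.4 ± 43.4 CPM in BLM rats and 378.9 ± 36.9 CPM in control rats (log2 fold change −0.12, SE 0.13, adjusted p = 0.61). Gpx3 had a log2 fold change of 1.98 with overlapping values (SE 0.70, adjusted p = 0.089). Gpx2 and Sod3 were too low to be tested.

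The class held 2 clusters, and different clusters held most of it in BLM and control lungs. A cluster led by Olr1 took 66.3% to 83.2% of the alveolar macrophages of a BLM rat and 3.37% to 12.1% of those of a control rat, and a cluster led by Slc39a2 took the rest. Within the Slc39a2-led cluster Gclc had 15.8, 53.2 and 48.6 CPM in BLM rats and 56.0, 47.6 and 47.9 CPM in control rats (log2 fold change −0.36, SE 0.26, adjusted p = 0.52). Hmox1 and Sod2 also overlapped between the groups there, with log2 fold changes of 0.09 (SE 0.23, adjusted p = 0.90) and −0.03 (SE 0.13, adjusted p = 0.96). In the Olr1-led cluster Gclc had 136.3, 147.5 and 146.4 CPM in BLM rats and 89.6, 483 and 135.4 CPM in control rats, and Sod2 had 1457, 1490 and 1344 CPM in BLM rats and 1285, 1073 and 1265 CPM in control rats. The value of 483 CPM came from the 12 cells of control rat 2, in which Hmox1 also stood at 4827 CPM, above the 1623, 1601 and 871 CPM of the BLM rats and the 1061 and 667 CPM of the other control rats. Gclc and Sod2 were thus higher in the Olr1-led than in the Slc39a2-led cluster in every rat of both groups, and within either cluster their difference between BLM and control rats did not pass.

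Txn1 differed in the same direction within both clusters. It had 6510, 6213 and 4294 CPM in BLM rats and 8086, 8835 and 9361 CPM in control rats in the Slc39a2-led cluster, where it fell (log2 fold change −0.70, SE 0.16, adjusted p = 0.022) and was the only one of 34 members tested to pass, where 5.01% of all genes did. In the Olr1-led cluster it had 5649, 5564 and 4347 CPM in BLM rats and 6855, 8017 and 7851 CPM in control rats, a log2 fold change of −0.52 (SE 0.18) with an unadjusted p of 0.0082 that did not pass. There 0 of 37 members passed the edgeR test, 4 had an unadjusted p under 0.05 (Sod1, Txn1, Txnip and Txnrd2), and 5.5% of all genes passed. The BLM effect differed between the Slc39a2-led and Olr1-led clusters for 0 of 38 members (2 with an unadjusted p under 0.05) and for 0.353% of all genes, in an edgeR test of the interaction with the rat as a block.

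**Figure D2:**
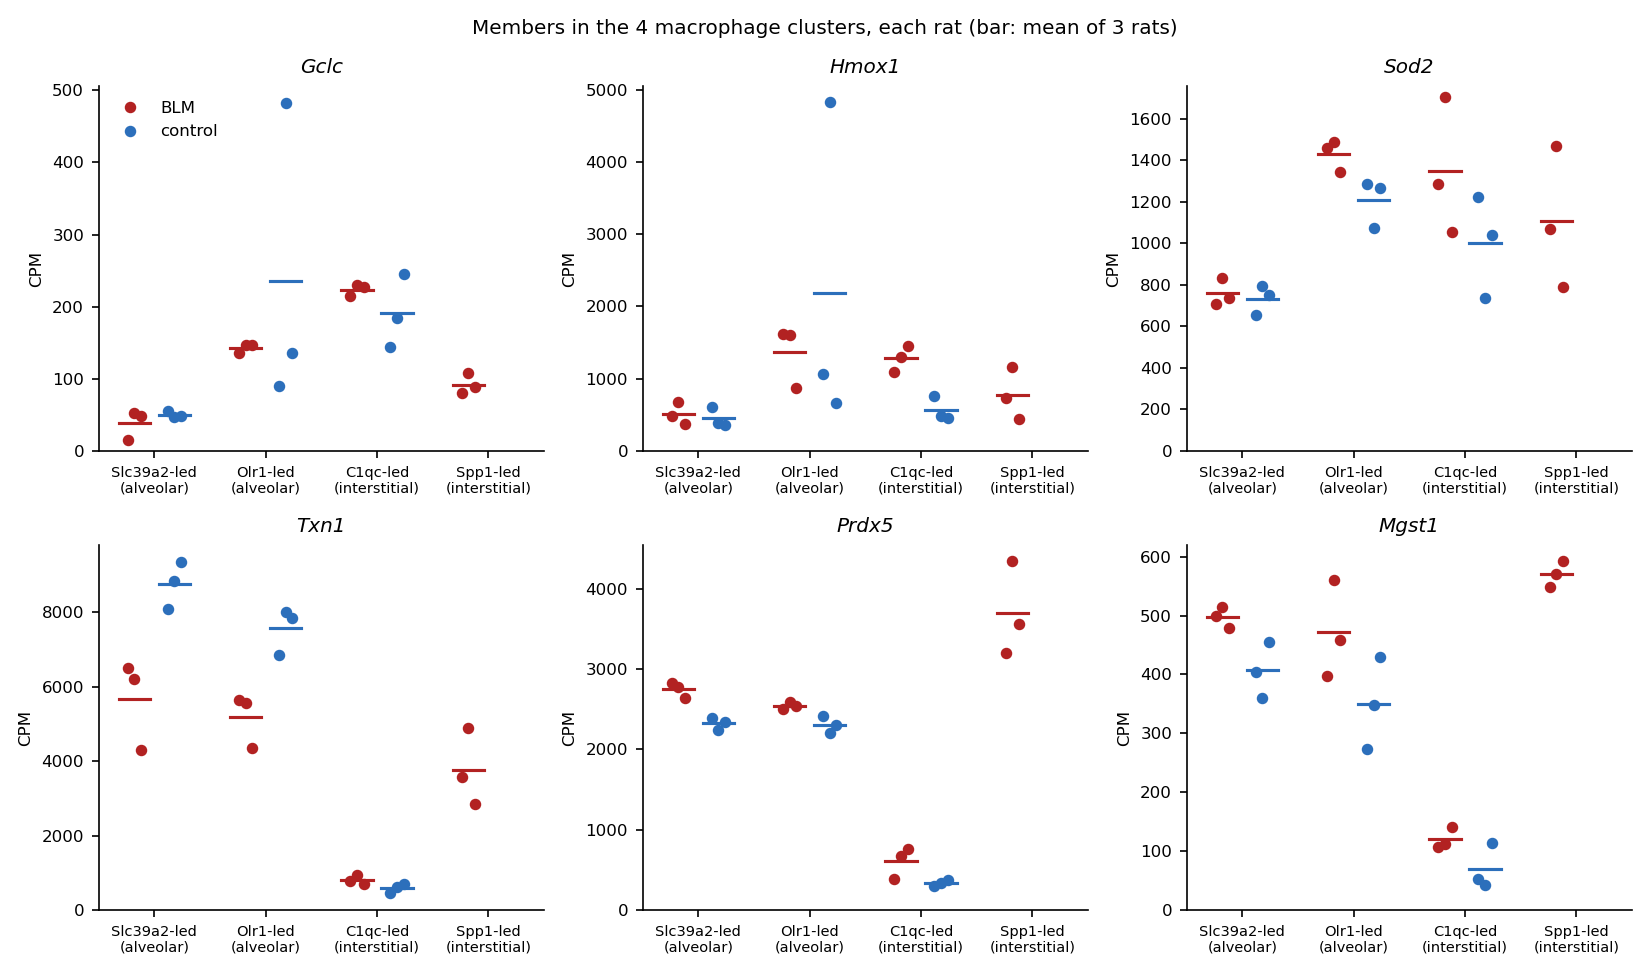
CPM of Gclc, Hmox1, Sod2, Txn1, Prdx5 and Mgst1 in each rat (points) and the mean of 3 rats (bars) in the 4 macrophage clusters, with BLM in red and control in blue. Control rats are left out of the Spp1-led cluster, which held 10 control cells in all. Gclc and Sod2 stood higher in the Olr1-led than in the Slc39a2-led cluster in both groups, Txn1 stood lower in BLM than in control rats in both alveolar clusters, and Prdx5 and Mgst1 stood far higher in the Spp1-led than in the C1qc-led cluster of BLM rats.

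Interstitial macrophages, as the class was named from its marker list, had the most members past the threshold of any class. In these cells 13 of 36 members tested rose (36.1%), where 9.41% of all genes rose, and 1 fell (2.78%), where 8.55% of all genes fell. The median log2 fold change was 0.65 over the members and 0.03 over all genes tested. Those that rose were transferases (Mgst1, Mgst2 and Gsto1), a glutathione peroxidase (Gpx1), peroxiredoxins (Prdx1, Prdx3 and Prdx5), members of the thioredoxin group (Txn1, Txn2, Txndc5, Txndc17 and Txnrd1) and Hmox1. The thioredoxin inhibitor Txnip fell. Without control rat 3, 8 members passed in place of 14. The class's own 13 markers summed to 26217 to 36045 CPM in BLM rats and 13098 to 14634 CPM in control rats. The 12 alveolar macrophage markers summed to 3334 to 3596 CPM in BLM rats and 1820 to 2221 CPM in control rats. The 6 classical monocyte markers summed to 3081 to 4372 and 916 to 2494 CPM, and the 8 alveolar type 1 markers to 725 to 910 and 150 to 282 CPM, in BLM and control rats. None of these markers was at 0 in the class. Their part in the result was not tested.

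Among the peroxiredoxins Prdx5, found in the cytosol, mitochondria and peroxisomes, had 2793, 3799 and 2631 CPM in BLM rats, against 559, 355 and 704 CPM in control rats. Every BLM value was more than 3 times every control value, and the fitted fold change was 6.10 (log2 fold change 2.61, SE 0.27, adjusted p = 9.81e-06). Prdx1 had 1079, 1356 and 899 CPM in BLM rats and 437, 793 and 439 CPM in control rats (log2 fold change 1.18, SE 0.25, adjusted p = 0.0040). The mitochondrial Prdx3 was lower, at 92.9, 88.4 and 75.8 CPM in BLM rats and 43.0, 27.3 and 33.2 CPM in control rats (log2 fold change 1.39, SE 0.37, adjusted p = 0.015), and its call was lost without control rat 3. Prdx6 averaged 116.7 ± 8.17 CPM in BLM rats and 118.6 ± 49.4 CPM in control rats (log2 fold change 0.06, SE 0.28, adjusted p = 0.92).

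Of the glutathione-using enzymes the membrane-bound transferase and peroxidase Mgst1 had 484.6, 502.6 and 441.7 CPM in BLM rats and 64.5, 68.4 and 132.6 CPM in control rats (log2 fold change 2.53, SE 0.28, adjusted p = 2.09e-05). Mgst2, which can join glutathione to leukotriene A4, had 217.6, 148 and 162.5 CPM in BLM rats and 35.8, 41.01 and 33.2 CPM in control rats (log2 fold change 2.40, SE 0.35, adjusted p = 0.00023). Gsto1, an omega class transferase that reduces disulfides and dehydroascorbate, had 264.1, 285.5 and 208.2 CPM in BLM rats and 71.7, 54.7 and 74.6 CPM in control rats (log2 fold change 2.01, SE 0.29, adjusted p = 0.0002). The groups lay well apart for all of Mgst1, Mgst2 and Gsto1. Gpx1 had 3983, 3881 and 3368 CPM in BLM rats and 1684, 1695 and 1798 CPM in control rats (log2 fold change 1.25, SE 0.21, adjusted p = 0.00065). Gpx4 averaged 504.2 ± 81.7 CPM in BLM rats and 376.2 ± 55.5 CPM in control rats (log2 fold change 0.58, SE 0.22, adjusted p = 0.081), and the secreted Gpx3 43.9 ± 7.22 and 71.5 ± 31.5 CPM (log2 fold change −0.43, SE 0.38, adjusted p = 0.49).

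In the thioredoxin group Txn1 had 3164, 4311 and 2132 CPM in BLM rats and 867, 629 and 1110 CPM in control rats (log2 fold change 2.00, SE 0.29, adjusted p = 0.0002). Its inhibitor Txnip had 649, 729 and 873 CPM in BLM rats and 1820, 1121 and 1202 CPM in control rats (log2 fold change −0.77, SE 0.22, adjusted p = 0.022). The groups did not overlap for either gene, which moved in opposite directions. Txndc17, a small thioredoxin-related protein of the cytosol, averaged 304.6 ± 53.7 CPM in BLM rats and 128.9 ± 18 CPM in control rats (log2 fold change 1.38, SE 0.26, adjusted p = 0.0017). The mitochondrial thioredoxin Txn2 averaged 151.8 ± 14.6 and 85.8 ± 8.81 CPM (log2 fold change 0.99, adjusted p = 0.017), the reductase Txnrd1 173.8 ± 18.9 and 104.8 ± 31.6 CPM (log2 fold change 0.80, adjusted p = 0.048) and the endoplasmic reticulum protein Txndc5 137.5 ± 10.7 and 85.7 ± 48.0 CPM (log2 fold change 0.93, adjusted p = 0.048). The groups overlapped for Txndc5, with control rat 2 at 136.7 CPM and BLM rat 1 at 126.7 CPM. The calls of Txndc5 and Txnrd1 were each lost in 5 of 6 fits with a rat left out, holding only without control rat 2 for Txndc5 and BLM rat 3 for Txnrd1. That of Txnip was lost without BLM rat 1, control rat 1 or control rat 3, and that of Txn2 without control rat 1 or 3. The calls of Prdx5, Prdx1, Mgst1, Mgst2, Gsto1, Gpx1, Txn1 and Txndc17 held with each rat left out in turn.

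Hmox1 had 782.5, 1186 and 779 CPM in the interstitial macrophages of BLM rats and 731, 506 and 431 CPM in those of control rats (log2 fold change 0.84, SE 0.25, adjusted p = 0.025), and lost its call without BLM rat 2, control rat 2 or control rat 3. Enzymes at the head of the glutathione route did not pass in this class. Gclc averaged 120.1 ± 18.3 CPM in BLM rats and 181.2 ± 32.6 CPM in control rats (log2 fold change −0.46, SE 0.24, adjusted p = 0.21), Gclm 27.9 ± 6.80 and 30.5 ± 26.8 CPM (log2 fold change −0.15, SE 0.54, adjusted p = 0.90) and Gsr 63.4 ± 2.59 and 39.4 ± 3.12 CPM (log2 fold change 0.82, SE 0.36, adjusted p = 0.13). Nqo1 averaged 99.2 ± 55.2 and 45.2 ± 32.0 CPM (log2 fold change 1.54, SE 0.56, adjusted p = 0.069), and its groups overlapped. The log2 fold changes of Sod1, Sod2 and Cat were 0.11, 0.33 and 0.44, with adjusted p between 0.35 and 0.78.

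**Figure D3:**
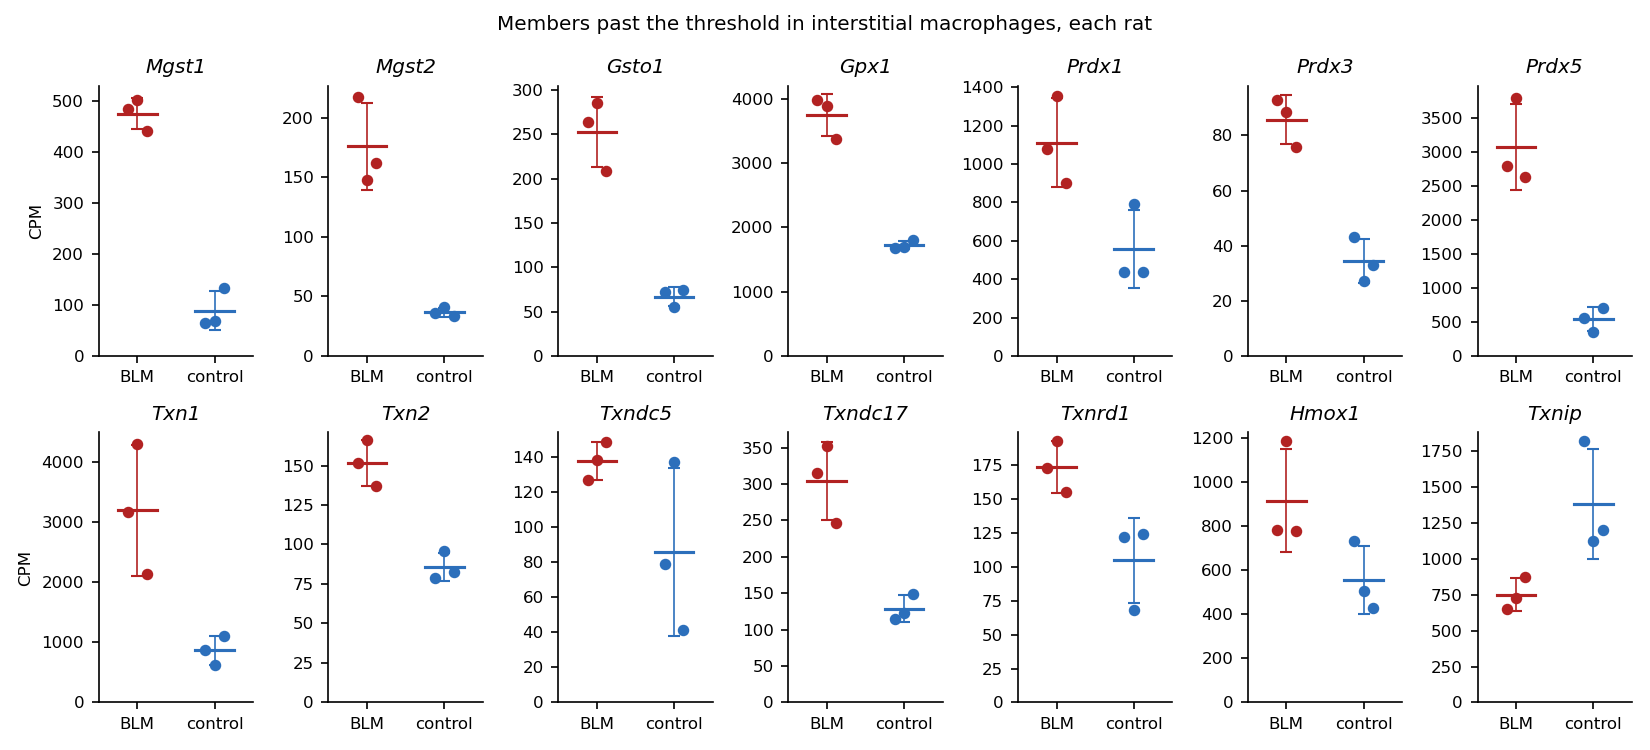
CPM of the 14 members past the threshold in interstitial macrophages, with each rat as a point, the mean as a wide bar and the SD as an error bar, BLM left and control right. The 2 groups lie apart for Prdx5, Mgst1, Mgst2, Gsto1, Gpx1 and Txn1, they overlap for Txndc5, and Txnip is the member with BLM below control.

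Interstitial macrophages, too, held 2 clusters. The C1qc-led cluster took 28.1% to 56.8% of the class in a BLM rat and 89.0% to 98.5% in a control rat, and the Spp1-led cluster the rest, with 978 BLM cells and 10 control cells, too few for a comparison. The study annotated a macrophage cluster high in Spp1 and Trem2 as alveolar, so the name interstitial is uncertain for the Spp1-led cluster. In the Spp1-led cluster of BLM rats Prdx5 stood at 3199, 4343 and 3565 CPM, Mgst1 at 548.2, 571 and 592.4 CPM and Txn1 at 3566, 4898.5 and 2846 CPM. In the C1qc-led cluster Prdx5 had 382, 679 and 765 CPM in BLM rats and 302, 339 and 377 CPM in control rats (log2 fold change 0.89, SE 0.26), Mgst1 107.3, 111.7 and 140.7 CPM and 52.9, 42.4 and 113.2 CPM (log2 fold change 0.77, SE 0.36) and Txn1 778, 941 and 704 CPM and 469, 622 and 698 CPM (log2 fold change 0.46, SE 0.21). None of Prdx5, Mgst1 and Txn1 passed there, with unadjusted p of 0.0034, 0.0502 and 0.044. Hmox1 was the 1 of 24 members tested that rose in the C1qc-led cluster, at 1100, 1303 and 1458 CPM in BLM rats and 763.5, 481 and 462 CPM in control rats (log2 fold change 1.18, SE 0.23, adjusted p = 0.010), where 1.35% of all genes passed. Which cluster a cell joined was set by other genes than the members. How far the differences of the whole class rest on the larger part of the Spp1-led cluster in BLM lungs was not tested beyond these values.

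The response of the 2 macrophage classes was compared in an edgeR test of the interaction with the rat as a block. The BLM effect differed for 20 of 42 members tested (47.6%), where it differed for 18.9% of all genes. In 17 of the 20 the log2 fold change was higher in interstitial than in alveolar macrophages, by 2.83 for Txn1 (SE 0.20, adjusted p = 2.93e-15), 2.61 for Prdx5, 2.55 for Mgst2, 2.46 for Mgst1, 1.98 for Gsto1 and 1.66 for Gpx1. It was lower by 2.20 for Gpx3 (difference −2.20, SE 0.62, adjusted p = 0.0079), by 1.37 for Gclc (difference −1.37) and by 1.14 for Txnip (difference −1.14). Gpx3 was scarce in alveolar macrophages, at 6.97 ± 4.55 CPM in BLM rats and 3.25 ± 3.95 CPM in control rats. Txn1 thus moved in opposite directions in the 2 classes, and its levels in BLM lungs, 5240 ± 789 CPM in alveolar and 3202 ± 1090 CPM in interstitial macrophages, lay nearer to each other than those in control lungs, 8617 ± 661 and 869 ± 241 CPM. When the C1qc-led cluster alone was set against alveolar macrophages, the effect differed for 3 of 37 members (Txn1 by 1.33, Txnip by −0.80 and Gpx3 by −2.74), where it differed for 2.85% of all genes, and for 1 member without BLM rat 2, control rat 1 or control rat 3.

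In endothelial cells, which line the vessels, Sod2 and Gstp1 rose and Gpx2 fell. Thus 2 of 36 members tested rose (5.56%), where 4.1% of all genes rose, and 1 fell (2.78%), where 2.76% of all genes fell. The median log2 fold change was 0.06 over the members and 0.02 over all genes tested. Gpx2, a glutathione peroxidase known chiefly from epithelia of the gut and airway, had 22.6, 17.4 and 9.27 CPM in BLM rats, against 455, 249.5 and 538 CPM in control rats (log2 fold change −4.67, SE 0.34, adjusted p = 1.01e-06). The groups were more than 10-fold apart, and the call held with each rat left out in turn. The values rest on 44 UMIs in 35 of 1675 BLM cells and 160 UMIs in 76 of 219 control cells, with at most 5 UMIs in a BLM cell and 10 in a control cell, and the median cell held 1313 UMIs in BLM and 1180 UMIs in control lungs. In alveolar type 2 cells, too few in BLM rat 1 for a test, Gpx2 stood at 511 CPM (95% exact Poisson interval 437 to 594) in BLM lungs and 392 CPM (368 to 417) in control lungs, pooled over rats, beside 474 CPM (403 to 553) in control endothelial cells.

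The summed level of the 10 alveolar type 2 markers moved with Gpx2, at 35 to 93 CPM in the endothelial cells of BLM rats and 470 to 538 CPM in those of control rats, against 149356 to 170981 CPM and 188070 to 198905 CPM in the alveolar type 2 class itself. The 9 club or secretory markers summed to 96 to 201 CPM in the endothelial cells of BLM rats and 38 to 543 CPM in those of control rats, and the 8 ciliated markers to 3.01 to 7.33 CPM in BLM rats and 0 CPM in each control rat. Gpx2 itself stood at 1864, 3206 and 859 CPM in the club or secretory cells of BLM rats and 314.8, 1065 and 905 CPM in those of control rats. Lymphatic endothelial markers stood at 160 to 197 CPM in BLM rats and 953 to 2011 CPM in control rats, and the part of these lists in the result was not tested. With the Emcn-led cluster alone, which held 89.1% to 90.6% of the class in BLM rats and 74.1% to 91.4% in control rats, Gpx2 had a log2 fold change of −4.86 (SE 0.35, adjusted p = 6.75e-07).

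Gstp1 had 433, 476 and 467 CPM in the endothelial cells of BLM rats and 265, 220 and 259 CPM in those of control rats (log2 fold change 0.99, SE 0.22, adjusted p = 0.0097), and its call held with each rat left out. Control rats 1, 2 and 3 had only 27, 41 and 151 endothelial cells. Low values in control rats 1 and 2 thus rest on few UMIs. Sod2 had 838, 1031 and 722 CPM in BLM rats and 114, 88.1 and 530 CPM in control rats (log2 fold change 1.5, SE 0.39, adjusted p = 0.029), so that control rat 3 lay well above the other control rats. The call was lost without BLM rat 1, BLM rat 2, control rat 1 or control rat 2, with log2 fold changes from 1.16 to 3.42. In the Emcn-led cluster alone 5 of 35 members passed, where 7.2% of all genes did: Sod2 rose (log2 fold change 1.69, SE 0.35, adjusted p = 0.0057), as did Gstp1 and Txnip, and Gpx2 and Mgst3 fell. Txnip averaged 2380 ± 432 CPM in BLM rats and 1616 ± 667 CPM in control rats in the whole class (log2 fold change 0.75, SE 0.25, adjusted p = 0.094). Erythroid markers summed to 4868 CPM in the endothelial cells of BLM rat 2, and to at most 147 CPM in those of control rats.

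The other members of the endothelial cells did not pass. Hmox1 had 152, 151.2 and 129.8 CPM in BLM rats and 75.8, 73.4 and 86.3 CPM in control rats, without overlap (log2 fold change 0.90, SE 0.29, adjusted p = 0.077). Control rats 1 and 2 held only 27 and 41 cells, so that their values of Hmox1 and Txnrd1 rest on few UMIs. Txnrd1 stood at 134.2 ± 5.11 CPM in BLM rats and at 0, 44.0 and 90.4 CPM in control rats (log2 fold change 1.01, SE 0.36, adjusted p = 0.12). Gclc, Nqo1 and Prdx6 had log2 fold changes of 0.73, 0.84 and 0.73 with adjusted p between 0.12 and 0.38. Cat had a log2 fold change of −0.52 (SE 0.26, adjusted p = 0.31) and Gpx3 of −0.94 (SE 0.60, adjusted p = 0.45). Gsr and Sod3 were too low to be tested. Gpx1 averaged 348.4 ± 113 CPM in BLM rats and 370.6 ± 312 CPM in control rats, and control rat 3, at 731 CPM, lay far above the other control rats at 190 and 191 CPM. Sod1, Prdx1, Gpx4 and Gclm had log2 fold changes from −0.0036 to 0.45 with adjusted p from 0.57 to 0.998.

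**Figure D4:**
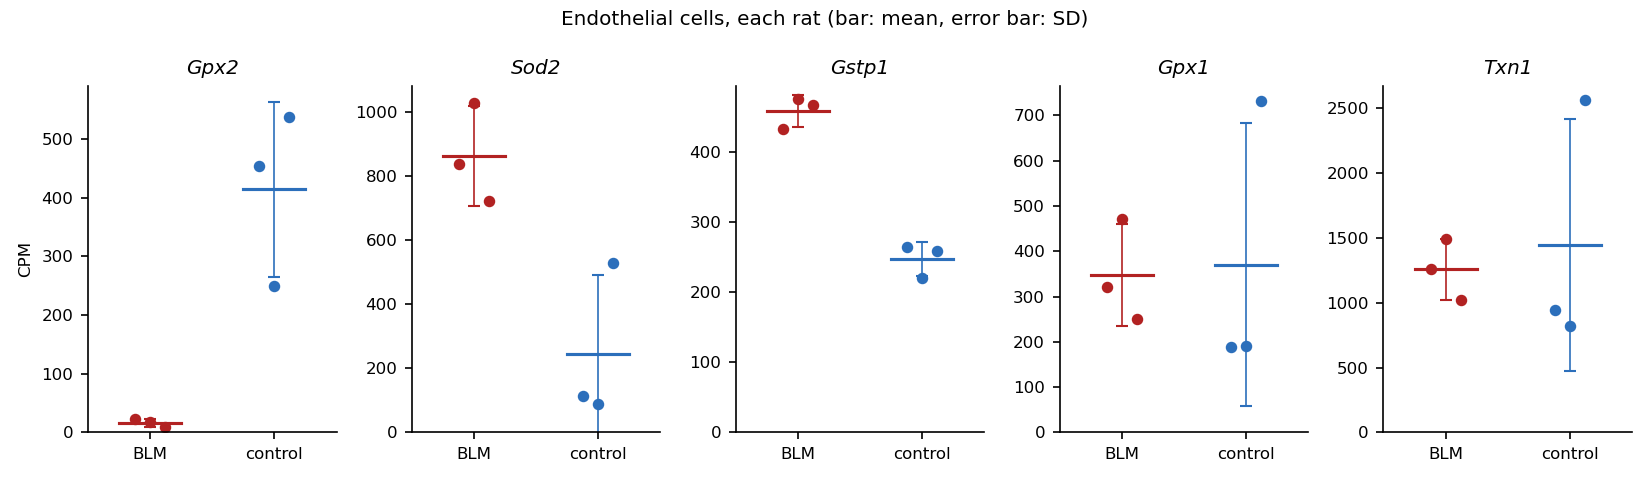
CPM of Gpx2, Sod2, Gstp1, Gpx1 and Txn1 in the endothelial cells of each rat (points), with the mean (wide bar) and SD (error bar), BLM left and control right. Gpx2 lies between 9.27 and 22.6 CPM in BLM rats and between 249.5 and 538 CPM in control rats, Gstp1 is separate in the other direction, and Gpx1 and Txn1 overlap.

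In neutrophils Hmox1, Prdx5, Gsto1, Cat, Prdx1, Txnip and Gpx4 rose and Gsr fell, so that 7 of 24 members tested rose (29.2%), where 9.88% of all genes rose, and 1 fell (4.17%), where 8.55% of all genes fell. The median log2 fold change was 0.52 over the members and 0.0044 over all genes tested. Hmox1 had 882.5, 746 and 555 CPM in BLM rats and 92.9, 71.2 and 77.4 CPM in control rats (log2 fold change 3.05, SE 0.28, adjusted p = 5.01e-05). Prdx5 had 1702, 1974 and 1538 CPM in BLM rats and 625, 498 and 941 CPM in control rats (log2 fold change 1.18, SE 0.24, adjusted p = 0.0060). Gsr had 122.5, 123.3 and 110.9 CPM in BLM rats and 338, 213.6 and 193.4 CPM in control rats (log2 fold change −1.16, SE 0.27, adjusted p = 0.011). The calls of Hmox1 and Prdx5 held with each rat left out, and that of Gsr was lost without BLM rat 2 or control rat 1.

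Among the other members of neutrophils Gsto1 had 164.7, 180.9 and 121 CPM in BLM rats and 33.8, 64.1 and 64.5 CPM in control rats (log2 fold change 1.33, SE 0.31, adjusted p = 0.011). Prdx1 had 502.5, 557 and 393 CPM in BLM rats and 194.2, 128.2 and 283.6 CPM in control rats (log2 fold change 1.08, SE 0.27, adjusted p = 0.015). Cat averaged 119.6 ± 39.5 CPM in BLM rats and 45.8 ± 23.2 CPM in control rats, Txnip 1249 ± 358 and 680 ± 81.7 CPM, and Gpx4 326.4 ± 53.8 and 180.7 ± 18.5 CPM, all with adjusted p between 0.038 and 0.049. Sod2, at 3298 ± 313 CPM in BLM rats and 3371 ± 488 CPM in control rats, had its highest level of all classes here in both groups, and its log2 fold change was −0.18 (SE 0.20, adjusted p = 0.56). Gclc and Sod1 had log2 fold changes of 0.92 (SE 0.44) and 0.61 (SE 0.29), both with an adjusted p of 0.15. Gpx1, Nqo1, Txnrd1 and Prdx6 had log2 fold changes between −0.20 and 0.09. Gclm, Gpx2, Gpx3 and Sod3 were too low to be tested. The call of Gsto1 was lost without BLM rat 2 or control rat 1, that of Prdx1 also without control rat 2, those of Cat and Txnip in 5 of 6 fits with a rat left out and that of Gpx4 in all 6. Without BLM rat 2 or control rat 1, 2 members passed in place of 8, and without control rat 2, 4 did.

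Macrophage markers moved with these values. The 12 alveolar macrophage markers summed to 4195 to 4632 CPM in the neutrophils of BLM rats and 1132 to 1979 CPM in those of control rats, and the 13 interstitial macrophage markers to 5118 to 9364 and 1032 to 2546 CPM. Of the alveolar list Marco was at 0. The 10 neutrophil markers themselves stood at 11480 to 22720 CPM in BLM rats and 38233 to 48687 CPM in control rats. Among the 236 BLM and 394 control neutrophils without any UMI of the macrophage lists 0 of 8 members tested passed the edgeR test, 1 (Txnip) had an unadjusted p under 0.05, and 0% of all genes passed. There Hmox1, Gsto1, Cat, Prdx1 and Gpx4 were too low to be tested, Prdx5 had a log2 fold change of −0.07 (SE 0.47) and Gsr of −0.39 (SE 0.36).

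Hmox1 and Sod2 also rose in smaller classes. In proliferating cells, a class defined by cell cycle genes in which macrophage markers were high in both groups, Hmox1 had 370, 486 and 304 CPM in BLM rats and 253, 182.2 and 160.6 CPM in control rats (log2 fold change 1.0, SE 0.21, adjusted p = 0.0019). Sod2 had 1258, 1166 and 965 CPM in BLM rats and 582, 638 and 755 CPM in control rats (log2 fold change 0.75, SE 0.16, adjusted p = 0.0026). These were the 2 of 30 members tested that rose (6.67%), where 3.44% of all genes rose. Leaving out BLM rat 2 or control rat 3 left 1 member past the threshold, while 4 passed without BLM rat 1 and 5 without control rat 2. The interstitial macrophage markers summed to 4690 to 7145 CPM in BLM rats and 2278 to 3269 CPM in control rats in this class. In non-classical monocytes Hmox1 had 631, 548 and 739 CPM in BLM rats and 435, 421 and 253 CPM in control rats (log2 fold change 0.79, SE 0.20, adjusted p = 0.045) and was the 1 of 26 members that rose, where 0.626% of all genes rose. That call was lost without BLM rat 1, BLM rat 3 or control rat 3, and with DESeq2.

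In mesothelial cells, which cover the lung surface, Sod2 had 993, 1119 and 614 CPM in BLM rats and 210.9, 343 and 354 CPM in control rats (log2 fold change 1.60, SE 0.30, adjusted p = 0.024), the 1 of 36 members that rose where 1.17% of all genes did. The call was lost without any of the 3 control rats. Hmox1 had 67.4, 261 and 81.3 CPM in BLM rats and 39.9, 26.4 and 41.6 CPM in control rats (log2 fold change 1.89, SE 0.64, adjusted p = 0.17). Interstitial macrophage markers summed to 602 to 1674 CPM in BLM rats and 94 to 239 CPM in control rats, and in the 163 BLM and 65 control cells without a macrophage-list UMI 0 of 17 members passed the edgeR test, 2 (Gpx4 and Mgst1) had an unadjusted p under 0.05, and Sod2 had a log2 fold change of 0.92 (SE 0.42), where 0.191% of all genes passed.

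A stromal cluster led by Cldn11, with fibroblast markers at 8365 to 19375 CPM in BLM rats and 26658 to 34112 CPM in control rats, was kept apart from the fibroblasts. In it 2 of 18 members tested rose (11.1%), where 2.99% of all genes rose. The secreted peroxidase Gpx3 had 5696, 9098 and 6458 CPM in BLM rats and 4182, 3171 and 3525 CPM in control rats (log2 fold change 1.02, SE 0.24, adjusted p = 0.0076), a call lost without control rat 2. Prdx5 had 1088, 244.2 and 356.3 CPM in BLM rats and 109.1, 92.3 and 146 CPM in control rats (log2 fold change 1.94, SE 0.41, adjusted p = 0.0025). BLM rat 1, with 22 cells, had the highest value of Prdx5 and the highest sum of interstitial macrophage markers, 3628 CPM, against 146 to 345 CPM in control rats. Among the cells without a macrophage-list UMI 1 of 15 members tested passed, where 5.95% of all genes did: Gpx3 rose there (log2 fold change 1.09, SE 0.23), and Prdx5 was too low to be tested. The BLM effect on Prdx5 was higher here than in endothelial cells by 2.28 on the log2 scale, the 1 of 29 members whose effect differed between these classes, where 3.05% of all genes did, and 0 differed without BLM rat 1.

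Fibroblasts and smooth muscle cells or pericytes had only 3 and 6 cells in control rat 1 and were not tested by themselves. In fibroblasts Gpx3 stood at 3511, 5319 and 3476 CPM in BLM rats and 10221, 5978 and 7259 CPM in control rats, the reverse of its order in the Cldn11-led cluster, and Sod3, the superoxide dismutase of the extracellular space, at 1600, 1316 and 1325 CPM in BLM rats and 700, 1683 and 1611 CPM in control rats. Hmox1 stood at 295, 220.3 and 161 CPM in the fibroblasts of BLM rats and at 0, 75.3 and 132.9 CPM in those of control rats. In smooth muscle cells or pericytes Mgst3 stood at 355.1, 352.8 and 337.5 CPM in BLM rats and 395, 138 and 226.1 CPM in control rats. The fibroblast, smooth muscle or pericyte and Cldn11-led cells were also summed. Different clusters held most of the sum in BLM and control lungs: Cldn11-led cells were 197 of 1933 cells in BLM lungs and 223 of 357 in control lungs, or 5.57% to 11.5% in a BLM rat and 57.3% to 82.7% in a control rat. In this sum Hmox1 had 228.3, 201.8 and 136.3 CPM in BLM rats and 71.7, 28.2 and 47.2 CPM in control rats (log2 fold change 2.20, SE 0.35, adjusted p = 0.0031). It was the 1 of 45 members tested to pass in this sum, where 5.73% of all genes did, and its call held with each rat left out. Without BLM rat 3, 4 members passed. Sod3 averaged 1168 ± 111 CPM in BLM rats and 775.6 ± 155 CPM in control rats in the same sum (log2 fold change 0.70, SE 0.22, adjusted p = 0.098), and Gpx3 3245 ± 1449 and 3549 ± 690 CPM.

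In 7 tested classes 0 members passed the edgeR test, and DESeq2 called 0 in each of them as well. In B cells, where 0.234% of all genes changed, 3 of 29 members had an unadjusted p under 0.05. Gclc had 151.1, 126.3 and 158.1 CPM in the B cells of BLM rats and 99.3, 71.7 and 85.2 CPM in those of control rats (log2 fold change 0.74, SE 0.24, adjusted p = 0.27), and Sod2 averaged 223.4 ± 111 and 121.2 ± 32.1 CPM (log2 fold change 0.97, SE 0.32, adjusted p = 0.27). Gpx1 averaged 702 ± 148 and 968 ± 158 CPM (log2 fold change −0.43, SE 0.19, adjusted p = 0.42). In T cells, where 0.605% of all genes changed, 2 of 28 had an unadjusted p under 0.05. Gclc had 87.6, 73.8 and 92.7 CPM in the T cells of BLM rats and 59.9, 47.6 and 38.7 CPM in those of control rats (log2 fold change 0.79, SE 0.28, adjusted p = 0.25), and Gstp1 averaged 191.3 ± 30.7 and 125.4 ± 36.5 CPM (log2 fold change 0.60, SE 0.23, adjusted p = 0.30). The Gclc values of BLM and control rats did not overlap in either B cells or T cells. Of the other central enzymes tested there, Sod1, Cat, Txnrd1, Txnip, Gpx4, Prdx1 and Prdx6 had log2 fold changes from −0.29 to 0.58 in B cells and −0.04 to 0.33 in T cells, with no adjusted p under 0.56. Hmox1 had a log2 fold change of 0.78 in B cells (SE 0.46, adjusted p = 0.56) and was too low to be tested in T cells.

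In NK cells, where 0.0462% of all genes changed, 4 of 27 members had an unadjusted p under 0.05, with log2 fold changes of 0.53 for Txnip, 0.74 for Txnl1, −0.52 for Txn1 and −0.91 for Prdx3. In classical monocytes, where 0.423% of all genes changed, 3 of 25 had one, with log2 fold changes of 0.56 for Sod2, 0.65 for Nqo1 and −0.55 for Prdx1. In conventional dendritic cells, where 0.0478% of all genes changed, 2 of 15 members had one (Txndc17 and Txnip), and in plasmacytoid dendritic cells, where 0.463% of all genes changed, 3 of 12 had one (Prdx1, Sod1 and Txnl1). Both dendritic classes were small, with as few as 21 cells of a rat among conventional and 23 among plasmacytoid dendritic cells.

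Club or secretory cells, the airway epithelial cells that metabolize inhaled compounds, had 12 of 37 members with an unadjusted p under 0.05 and none past the threshold, where 5.13% of all genes changed. Gpx2 had 1864, 3206 and 859 CPM in BLM rats and 315, 1065 and 905 CPM in control rats (log2 fold change 1.33, SE 0.48, adjusted p = 0.15). Nqo1 averaged 570 ± 317 CPM in BLM rats and 256.8 ± 73.8 CPM in control rats (log2 fold change 1.14, SE 0.44, adjusted p = 0.19). Gclm averaged 83.2 ± 13.4 and 19.8 ± 21.6 CPM (log2 fold change 1.36, SE 0.51, adjusted p = 0.16). Prdx6 averaged 420.3 ± 71.6 CPM in BLM rats and 1041 ± 549 CPM in control rats (log2 fold change −1.31, SE 0.39, adjusted p = 0.075), and Cat 115.8 ± 34.3 and 237.1 ± 58.7 CPM (log2 fold change −1.10, SE 0.35, adjusted p = 0.097). Alveolar type 1 markers summed to 831 to 1531 CPM in this class in BLM rats and 3330 to 13982 CPM in control rats, and control rats had 15 to 65 of these cells. Their part in the values was not tested.

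Several members stood highest outside the macrophages, and their levels are given pooled over the 3 rats of a group, with no test. Gpx3 was highest in the Cldn11-led cluster in BLM lungs, at 7662 CPM, and in fibroblasts in control lungs, at 6980 CPM (95% exact Poisson interval 6489 to 7499, for counting error only). Sod3 followed the same cells, with 1362 CPM in the fibroblasts of BLM lungs and 1577 CPM in those of control lungs, as did Gpx7 and Gpx8, peroxidases of the endoplasmic reticulum, at 311.4 and 179.2 CPM in BLM fibroblasts and 391.9 and 177.3 CPM in control fibroblasts. Gpx2, Gstm1 and Prdx6 were highest in ciliated cells. Gpx2 stood at 2947 CPM in those of BLM lungs and 1433 CPM in those of control lungs, Gstm1 at 2798 and 1665 CPM, and Prdx6 at 2920 and 3884 CPM, with 178 BLM and 16 control cells in the class. Mgst1 and Cat were highest in alveolar type 2 cells, Mgst1 at 865 CPM in BLM and 726 CPM in control lungs and Cat at 275 CPM in BLM and 458 CPM in control lungs. Gsta6 stood out in B cells, at 321.6 CPM in BLM and 220.4 CPM in control lungs (log2 fold change 0.51, SE 0.25, adjusted p = 0.46). Txn1 was highest in proliferating cells and alveolar macrophages in both groups.

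**Figure D5:**
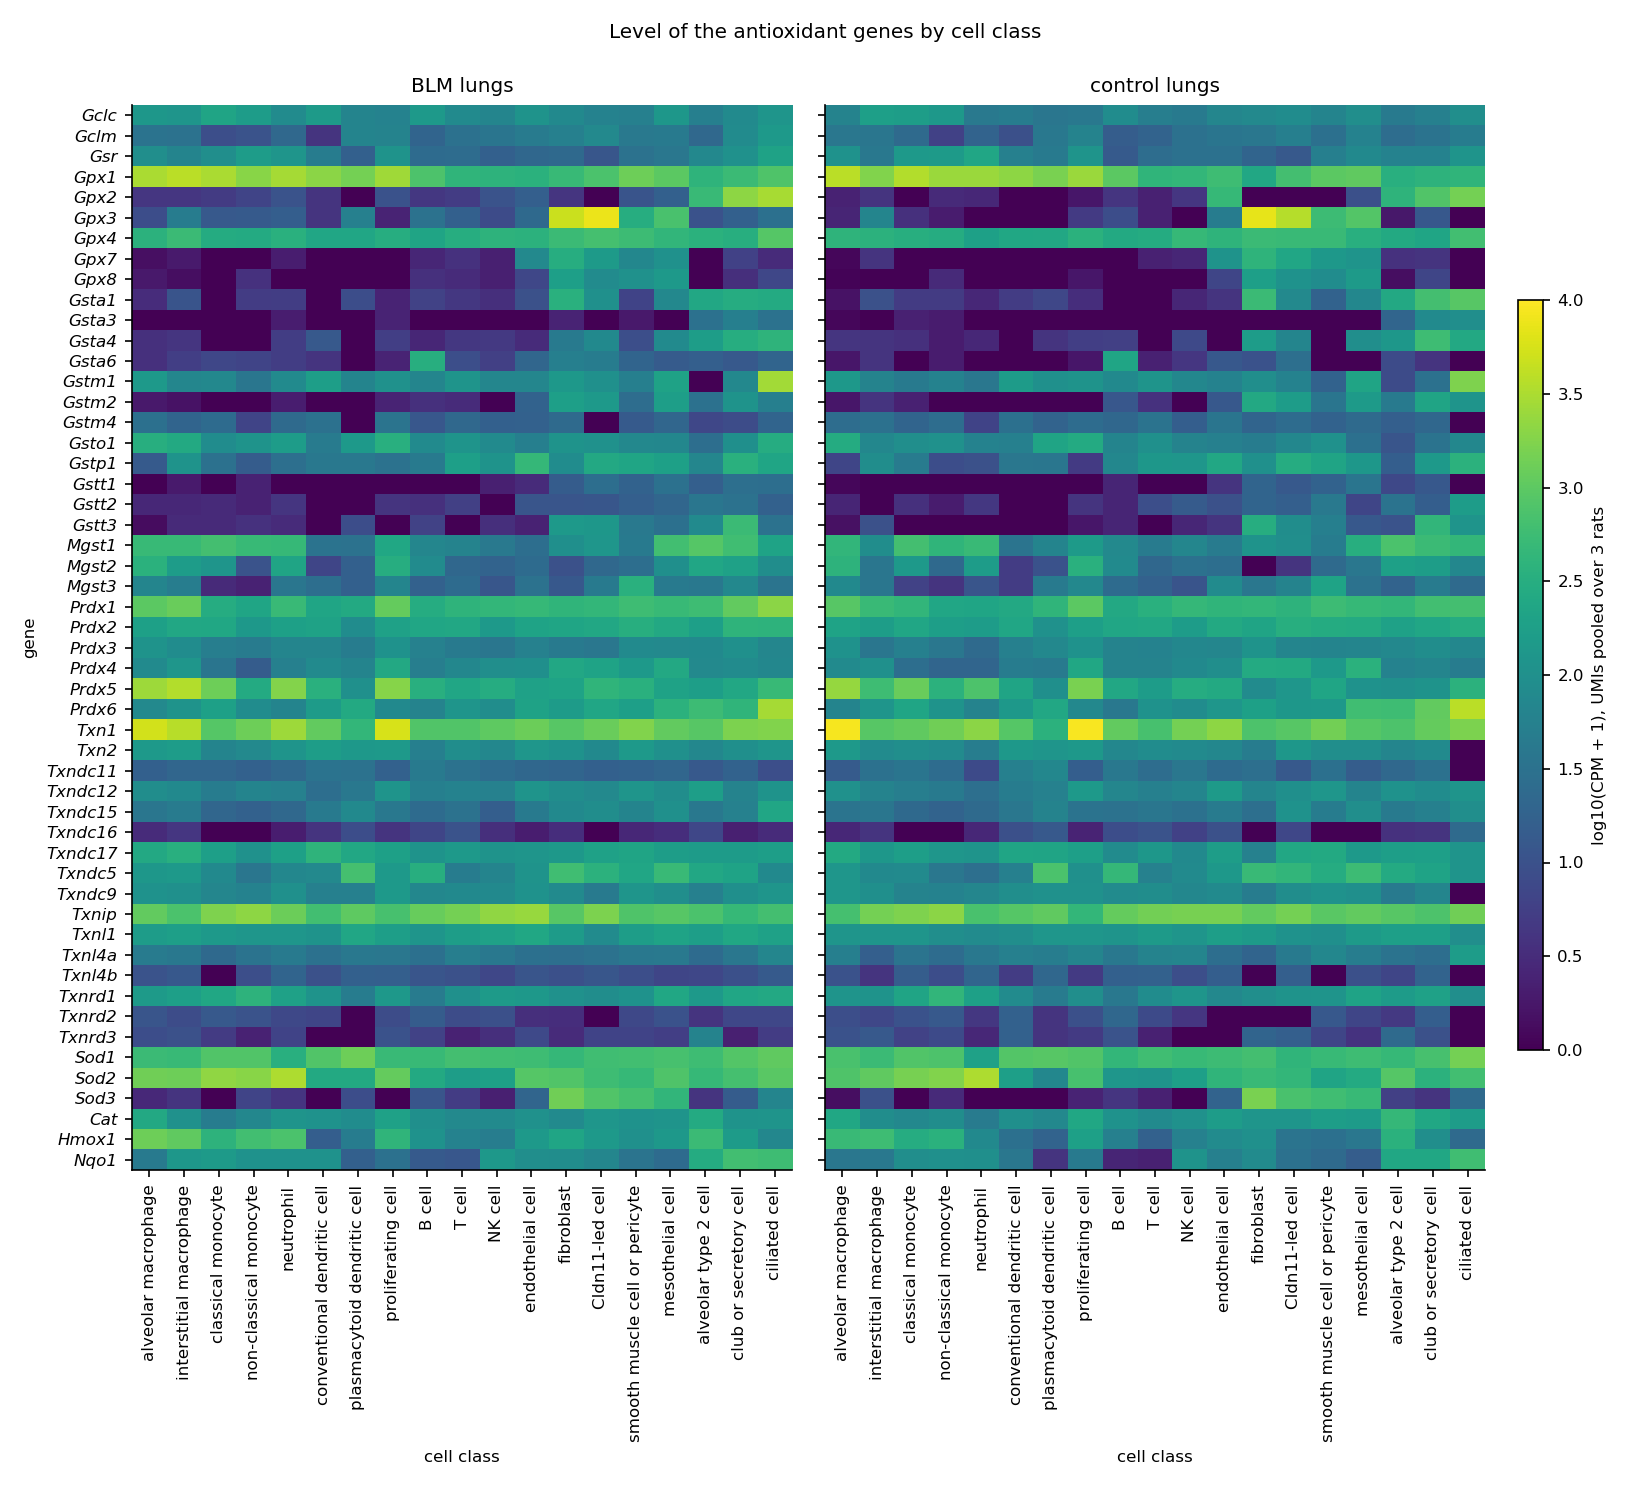
Level of each of the 52 members (rows) in 19 cell classes (columns) as log10 of CPM plus 1, from UMIs pooled over 3 rats, with BLM lungs on the left and control lungs on the right. Gpx1 and Txn1 are bright in nearly all columns, Gpx3 and Sod3 are bright in the stromal columns, Gpx2 and Gstm1 in ciliated cells, and Gsta6 in B cells. Gpx2 in endothelial cells is dark in BLM lungs and bright in control lungs.

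Genes that serve these routes from outside the member families were followed in 9 lists. The counts in interstitial macrophages stand beside 9.41% of all genes that rose and 8.55% that fell in this class. Of the 31 list genes past the threshold there, 21 could be tested within the C1qc-led cluster, the cluster that held enough cells of both groups, and only Hpgds passed in it. The values that follow are those of the whole class. In it 5 of 11 genes of NADPH supply rose, among them the pentose phosphate enzymes Taldo1 (log2 fold change 1.56) and Tkt (log2 fold change 1.55). Taldo1 had 945, 977 and 835 CPM in BLM rats and 415.6, 259.7 and 323.2 CPM in control rats. Of 8 genes of glutathione synthesis and turnover tested, 2 rose and 1 fell in this class. The cystine transporter Slc7a11 rose, at 22.2, 65.1 and 60.2 CPM in BLM rats and 0, 0 and 8.29 CPM in control rats, as did the aminopeptidase Anpep (log2 fold change 2.48), and Slc3a2, the heavy chain that partners Slc7a11, fell (log2 fold change −0.62). The class held only 65, 53 and 73 cells in control rats 1, 2 and 3. The lowest control values thus rest on few UMIs, and fold changes against them are uncertain. Of 17 genes of iron and haem handling 5 rose and 2 fell: ferritin heavy chain Fth1 had 25284, 23622 and 17910 CPM in BLM rats and 8197, 5632 and 8361 CPM in control rats, the ferrireductase Steap3 and the biliverdin reductase Blvra rose (log2 fold changes 4.08 and 2.17), and the iron exporter Slc40a1 and the haemoglobin receptor Cd163 fell. The prostaglandin D synthase Hpgds, itself a sigma class glutathione transferase, fell, with 0.967, 1.23 and 2.41 CPM in BLM rats and 71.7, 82.0 and 74.6 CPM in control rats, and was 1 of 3 among 12 genes in the list of other transferases and glutaredoxins to fall. Of 8 other NRF2 target enzymes 3 rose, with Ephx1 at a log2 fold change of 2.93, and Aldh1a1 fell (log2 fold change −5.39). Of 9 oxidant-producing enzymes 4 rose and 1 fell, among them xanthine dehydrogenase Xdh (log2 fold change 1.51) and the NADPH oxidase subunits Ncf1 (1.22) and Ncf4 (−1.02).

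In alveolar macrophages, where 8.18% of all genes rose and 6.25% fell, 22 list genes passed, of which 5 passed in the same direction within the Slc39a2-led cluster, 10 within the Olr1-led cluster and 12 in neither. Of 11 genes of NADPH supply 1 rose and 4 fell, with malic enzyme Me1 at 11.8, 14.5 and 12.3 CPM in BLM rats and 44.4, 37.1 and 42.8 CPM in control rats (log2 fold change −1.74). Nfe2l2, which encodes NRF2 itself, had 563, 610 and 430 CPM in BLM rats and 311, 239 and 269 CPM in control rats (log2 fold change 0.93). Within the Slc39a2-led and Olr1-led clusters it did not pass, with log2 fold changes of 0.34 (SE 0.17, adjusted p = 0.32) and 0.30 (SE 0.17, adjusted p = 0.40). It also rose in endothelial cells, at 1180, 1513 and 1256 CPM in BLM rats and 796, 616 and 579 CPM in control rats (log2 fold change 1.17). The biliverdin reductase Blvra fell in alveolar macrophages (log2 fold change −0.62), but did not pass within either cluster (−0.47 and −0.35), and rose in interstitial ones. Ncf1 fell in alveolar macrophages, in both clusters as well, and rose in interstitial ones (log2 fold changes −0.90 and 1.22 over the whole classes). Xdh rose in both (log2 fold changes 1.52 and 1.51), and the transferrin receptor Tfrc rose in alveolar macrophages (log2 fold change 1.31), neutrophils (1.40) and proliferating cells (1.95). In endothelial cells, where 4.1% of all genes rose and 2.76% fell, the glutamine transporter Slc1a5 rose (log2 fold change 1.60). The selenium carrier Selenop, the NADPH oxidase subunit Cybb and the monoamine oxidase Maob fell (log2 fold changes −1.89, −1.96 and −1.61). The groups overlapped for Cybb and Maob, both at 37.9 CPM in control rat 1, beside 118.2 CPM of Cybb in BLM rat 2 and 49.7 CPM of Maob in BLM rat 1. Control rat 1 had only 27 endothelial cells. In neutrophils Lcn2, an iron-siderophore binding protein of the granules, fell (log2 fold change −2.41) and Idh1 rose (log2 fold change 1.37). The groups overlapped for Lcn2, with BLM rat 1 at 71.8 CPM and control rat 3 at 51.6 CPM. Macrophage markers were higher in the neutrophils of BLM rats, and 0% of all genes passed in neutrophils without a macrophage-list UMI. The part of macrophage RNA in the neutrophil values of Tfrc, Lcn2 and Idh1 was not tested.

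The NRF2 binding element has the core TGACNNNGC, and the promoters of the members were searched for it on both strands. RefSeq windows of the GRCr8 assembly, 250 bases before to 50 bases after the transcript start chosen for each gene, were at hand for 43 of the 52 members and 10856 of the 16383 genes. The core was found in 13 member windows (30.2%) and in 14.4% of all windows, and wholly before the start in 8 (18.6%) and 12.2%. Of the 8, Gpx2, Gstp1, Prdx1, Sod2 and Txndc5 passed the test in some class and Gclm, Gsta3 and Txndc11 in none. The windows of Gclc, Txnrd1, Nqo1, Gpx1, Txn1 and Mgst1 held no core, which says nothing of sites farther away, and no window was at hand for Hmox1. For Txnrd1 and Gclc the window was set on a start 37702 and 225 bases inside the RefSeq gene record, so that the bases before its outer end were not searched in full. The stretches around the core are printed for Gclm, for the members that passed and for no others, 5′ to 3′ on the coding strand, with the core in capitals. A match is a sequence feature and was not measured as a bound site.
Gclm, chr2:213031948-213031986, plus strand: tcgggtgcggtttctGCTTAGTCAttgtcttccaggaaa
Gpx2, chr6:101230034-101230061, minus strand: tgggtacctggtttcGCTAAGTCAttct
Gstp1, chr1:210769743-210769781, minus strand: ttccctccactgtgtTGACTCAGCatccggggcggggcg
Prdx1, chr5:135383756-135383794, plus strand: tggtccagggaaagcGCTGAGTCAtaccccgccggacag
Sod2, chr1:50050180-50050218, minus strand: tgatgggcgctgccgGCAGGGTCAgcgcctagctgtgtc
Txndc5, chr17:26495430-26495466, plus strand: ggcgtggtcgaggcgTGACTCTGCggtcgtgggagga
The core began 172 bases before the start of the window's transcript in Gclm, 13 in Gpx2, 61 in Gstp1, 135 in Prdx1, 35 in Sod2 and 22 in Txndc5. In Gstp1 this start lies 537 bases inside the RefSeq gene record, which reaches farther out, so that the stretch shown lies within that record, and in the other 5 it is the record's outer end. Of the genes with the core, Gpx2 fell in endothelial cells while Gstp1 and Sod2 rose there, and Gclm did not pass in any class. The part of the core in any of these values was not tested.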

How the data were processed

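UMI counts were deposited by the authors as whole numbers, not normalized, for 16383 genes in every cell they had kept. For the aligner, the counter and the filter on cells the entry is: not given in the sources used here. The submitters' processing notes name the genome build mm9, although the gene symbols are those of the rat. Because the header lacks a name for its leading column, each count column was read under the name printed 1 place before it, which was checked on the most abundant genes. No label spells out the letters F and N of the libraries. They were read as fibrosis and normal and so taken as BLM and control, and the cells of each letter sum to the total the study states for that group. Library numbers were matched to the numbers in the sample titles, so that BLM rat 1 is the library lettered F with number 1. How reads shared by near-identical family members, such as the Gsta and Gstm genes, were counted is not stated, and their counts are uncertain.

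All cells were kept and no doublet caller was run. Instead, an alternative left out the 5% of cells with the most UMIs. After scaling each cell to a total of 10000 and taking logs, 30 principal components of 2000 variable genes, members excluded, gave a graph of 15 neighbours per cell, which was split by Leiden clustering (resolution 1.0) (Python 3.11.15, scanpy 1.11.5, leidenalg 0.10.2). Libraries were not integrated. A cluster was named where at least 3 markers of a list passed a log2 fold of 1 in at least 10% of its cells and led over other lists. The Cldn11-led cluster was given its own name in place of the smooth muscle or pericyte name from the lists. UMIs were summed per rat and class and tested in R 4.3.3 with edgeR 4.0.16 (filterByExpr, TMM, quasi-likelihood test, Benjamini-Hochberg adjustment), which was tested on simulated data. A simulated 2-fold change was recovered in 69% of changed genes in alveolar macrophages, 44% in interstitial macrophages, 43% in neutrophils and 31% in endothelial cells. A 4-fold change was recovered in 94% to 100%. A member that did not pass may therefore still have changed. Classes under 10 cells in a rat were not tested. The tests were repeated with DESeq2 1.42.0, with RLE scaling, unfiltered, with a replicate block, with every rat omitted once, at resolutions 0.5 and 2.0, with members kept among the clustering genes and on cells of at least 500 UMIs. Single clusters, cells without a macrophage-list UMI, a summed stromal class and further pairs of classes were chosen after seeing the data. Poisson intervals cover counting error only. For a single gene an exact permutation test of 3 rats against 3 cannot go below p = 0.1, so that none is given.

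The members, marker lists and the 9 lists of other genes were chosen with earlier results of these data known. Values per rat are given for up to 6 members per direction and main class past the threshold whose mean reached 20 CPM, and 17 members of textbook roles are given in each of these classes where tested. From each list up to 2 genes per direction at 20 CPM or more are named, and any other was chosen after its values were seen.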

Additional observations from a re-analysis of the deposited data

Results flagged for a closer look

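The BLM effect, as the log2 fold change of BLM over control, differed between classes by an edgeR test of the interaction with the rat as a block. Between interstitial and alveolar macrophages the difference was positive for Txn1 (2.83), Prdx5 (2.61), Mgst2 (2.55), Mgst1 (2.46), Gsto1 (1.98), Txnl4a (1.96), Gpx1 (1.66), Nqo1 (1.57), Txndc17 (1.53), Prdx3 (1.44), Prdx1 (1.27), Gsr (1.24), Txn2 (1.11), Prdx2 (1.05), Txndc5 (1.03), Gpx4 (0.82) and Sod1 (0.64). It was negative for Gpx3 (−2.20), Gclc (−1.37) and Txnip (−1.14). Of these, Nqo1, Gsr, Prdx2, Gpx4, Sod1, Txnl4a and Gpx3 passed the test in neither of the 2 classes by itself.

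Between the C1qc-led cluster of the interstitial macrophages and alveolar macrophages the difference was 1.33 for Txn1, −0.80 for Txnip and −2.74 for Gpx3. Between the Cldn11-led cluster and endothelial cells it was 2.28 for Prdx5, with BLM rat 1 of the Cldn11-led cluster, at 1088 CPM, far above the other rats of that class.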

How the results depend on the processing

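The numbers of members past the threshold ranged, with each rat left out in turn, from 3 to 7 in alveolar macrophages, 8 to 16 in interstitial macrophages, 2 to 4 in endothelial cells, 2 to 7 in neutrophils, 1 to 5 in proliferating cells, 1 to 2 in the Cldn11-led cluster, 1 to 4 in the summed stromal cells and 0 to 1 in mesothelial cells, non-classical monocytes, club or secretory cells and plasmacytoid dendritic cells. For differences between classes they ranged from 14 to 21 for interstitial against alveolar macrophages, 1 to 4 for the C1qc-led cluster against alveolar macrophages, 0 to 1 for the Slc39a2-led against the Olr1-led cluster and 0 to 2 for Cldn11-led against endothelial cells. Without a filter on low counts, 5 members passed in each of endothelial, mesothelial, proliferating and club or secretory cells, 1 in each of B cells, T cells and plasmacytoid dendritic cells, and 2 in each of the differences between the Slc39a2-led and Olr1-led and between Cldn11-led and endothelial cells. DESeq2 called 5 members in neutrophils. In non-classical monocytes 0 passed with DESeq2, RLE scaling, the replicate block, resolution 2.0 or cells of at least 500 UMIs. At resolution 2.0 proliferating cells had 1. Without the 5% of cells with the most UMIs, the Cldn11-led cluster had 1 and club or secretory cells 2. The shares of all genes that passed under each setting are not given here, so these counts have no background beside them.

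With the replicate block, 3 members passed in neutrophils and 1 in club or secretory cells. The replicate numbers are only names, with correlations of same-numbered rats between −0.23 and 0.11. Single clusters, chosen after seeing the data, gave 1 member in the Slc39a2-led, 0 in the Olr1-led, 1 in the C1qc-led and 5 in the Emcn-led cluster. Cells without a macrophage-list UMI gave 1 in the Cldn11-led class, 0 in mesothelial cells and 0 in neutrophils. Log2 fold changes reversed in sign for Gclc (−0.36) and Sod2 (−0.026) in the Slc39a2-led cluster, Gstp1 (−0.041) and Hmox1 (−0.24) in the Olr1-led cluster and Prdx5 (−0.073) in neutrophils without a macrophage-list UMI. The cause was not tested for any of these. Of the values of single genes under all settings, 527 kept direction and call, 121 lost the call and 7 gained it. The planned comparisons of fibroblasts with endothelial cells and of smooth muscle cells or pericytes with fibroblasts were not run, since control rat 1 had under 10 cells of either class.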
